A study of Mus musculus with 2 samples.

Results

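The CCT chaperonin, also called TRiC, was examined through its 8 subunit genes Tcp1, Cct2, Cct3, Cct4, Cct5, Cct6a, Cct7 and Cct8, out of 14198 annotated genes with at least 1 read. The members were taken by gene name from both transcript tables, and all 8 were read in both libraries. They accounted for 248 of 82272 transcript models in replicate 1 and for 257 of 78691 in replicate 2. The data are long-read RNA-seq of total RNA from C2C12, an established mouse myoblast line obtained from injured thigh muscle of C3H mice. There is 1 group, with 1 library from each of 2 biological replicates, and no treatment, genotype or time course is given. Age and sex are not given either, nor whether the cells were growing or differentiating when they were collected.

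CCT is a double-ring chaperonin of the cytosol in which each ring holds 1 copy of each of the 8 paralogous subunits. It encloses unfolded actins, tubulins and some WD-repeat proteins and folds them by ATP hydrolysis. Prefoldin hands it nascent actin and tubulin, and phosducin-like proteins act as its cofactors. Since the ring takes its subunits in equal number, the balance of their transcripts was the first quantity described.

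Replicate 1 held 791850 reads and replicate 2 held 735077, of which 773408 and 722647 fell on annotated genes. Levels are given as CPM, a gene's reads scaled to a common total of annotated-gene reads, with 95% Wilson intervals that cover counting error only, and 3 reads correspond to 3.88 and 4.15 CPM. Of the defining myoblast markers, Myod1 was at 154 and 176 CPM in replicates 1 and 2, Des at 1139 and 1643 CPM, Cdh15 at 204 and 232 CPM, and Myf5 at 278 and 83.0 CPM. Of 8 markers of blood, endothelial, adipocyte and epithelial cells, none exceeded 3 reads in either library, and Ptprc, Cdh5, Adipoq, Plin1 and Epcam had 0 in both. The 8 summed to 5.17 and 4.15 CPM. In bulk RNA, fewer cells of a type and less RNA per cell cannot be told apart.

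The sequences shown first are those around the long junction of Cct6a, since that junction set this gene apart from the other 7 subunits in its transcript models. Cct6a lies on chr5:129786998-129846371, plus strand, in mm10. GENCODE M21 lists it as a processed transcript, tags its longest transcript Cct6a-202 as holding a sequence error and gives it no coding sequence, whereas RefSeq lists the gene as protein-coding. The annotation joins the exon at chr5:129794352-129794499 to the exon at chr5:129844970-129845072 in Cct6a-202. Between them lie 2 further annotated stretches that bear on the junction. One is Snora15, a small nucleolar RNA gene at chr5:129794546-129794676. The other is an exon of the annotated transcript Cct6a-201 at chr5:129844813-129844936. All 4 were read from the GENCODE M21 transcripts and are given 5′ to 3′ on the plus strand. Capitals in Snora15 mark the 2 bases that follow each of the 2 most used exon ends of the unannotated models. Capitals in the Cct6a-201 exon mark the 2 bases before the most used exon start.
Exon left of the junction: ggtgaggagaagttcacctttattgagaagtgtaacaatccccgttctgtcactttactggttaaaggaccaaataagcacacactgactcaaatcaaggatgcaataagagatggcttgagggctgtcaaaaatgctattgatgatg
Snora15: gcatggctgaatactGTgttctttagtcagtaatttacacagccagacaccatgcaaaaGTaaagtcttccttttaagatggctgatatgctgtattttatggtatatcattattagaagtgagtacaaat
Cct6a-201 exon: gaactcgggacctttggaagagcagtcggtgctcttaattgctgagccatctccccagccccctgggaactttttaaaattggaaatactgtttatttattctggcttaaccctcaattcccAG
Exon right of the junction: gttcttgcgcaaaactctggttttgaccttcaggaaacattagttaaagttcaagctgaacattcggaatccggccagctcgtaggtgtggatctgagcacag

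All 8 subunit genes were well read, between 329 and 777 reads in replicate 1 and between 359 and 849 in replicate 2. Together they made up 4736 CPM in replicate 1 and 5898 CPM in replicate 2, a mean of 5317 ± 821 CPM (SD, n = 2), or 0.474% and 0.590% of annotated-gene reads. By mean CPM the genes ranked between 116 and 349 among the 14198 genes read.

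Cct5, which encodes the epsilon subunit, was the most abundant. It was read 777 times in replicate 1 (1005 CPM, interval 936 to 1078) and 849 times in replicate 2 (1175 CPM, interval 1098 to 1257). Both libraries placed it above every other subunit, with no overlap. Cct4, the delta subunit, was at 697 CPM in replicate 1 and 883 CPM in replicate 2. Cct7, the eta subunit, was at 630 and 891 CPM, and it ranked above Cct4 in replicate 2 but below it in replicate 1. Tcp1, the alpha subunit and the first of the family to be described, was at 583 and 688 CPM. Cct8, the theta subunit, was at 509 and 668 CPM. From Cct4 to Cct8 the range of each over both libraries overlapped that of its neighbour in the order.

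The lowest 3 were close together. Cct2, the beta subunit, was at 460 CPM in replicate 1 and 545 CPM in replicate 2. Cct3, the gamma subunit, was at 427 and 551 CPM. Cct6a, the zeta subunit, was at 425 CPM (interval 382 to 474) and 497 CPM (interval 448 to 551). Of the 7 pairs of neighbours in the order by mean CPM, 1 had ranges over both libraries that did not overlap, Cct5 over Cct4, by 1.38-fold in the means. Those ranges include the shift of every subunit between libraries. Within each library the order of 5 of the 7 pairs was the same, the exceptions being Cct4 with Cct7 and Cct2 with Cct3. Over all 28 pairs of subunits, 19 had ranges that did not overlap and 26 had the same order in both libraries.

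**Figure D1:**
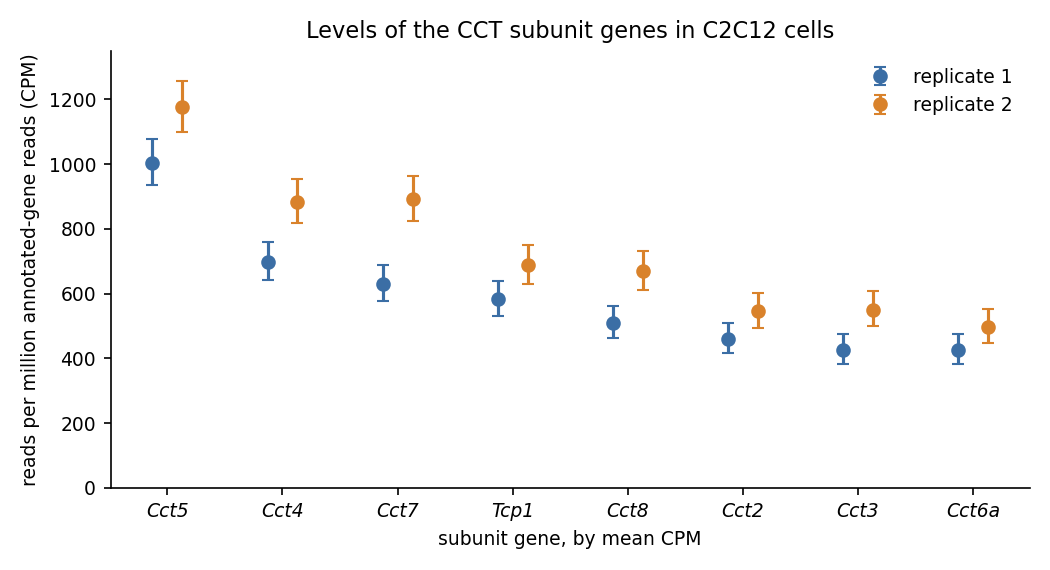
Level of each subunit gene in CPM (vertical axis) in replicates 1 and 2 (points), with 95% Wilson intervals (bars), ordered by mean CPM. Cct5 stands above the rest at 1005 and 1175 CPM, and every subunit is higher in replicate 2 than in replicate 1.

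The ratio of the highest to the lowest subunit was 2.36 in replicate 1 and 2.36 in replicate 2, although the summed level differed between them. The coefficient of variation over the 8 subunits was 32.7% and 31.3%. Cct5 supplied 21.2% and 19.9% of all subunit reads and Cct6a 8.98% and 8.42%. CPM are comparable between genes without a length term if each long read stands for 1 molecule and read length does not limit detection. Neither condition was tested. Per kilobase of the most read model, Cct5 was at 588 ± 64.9 CPM per kb (SD, n = 2), Cct4 at 318 ± 52.9, Cct7 at 312 ± 75.7 and Cct6a at 181 ± 19.8, and the ratio of highest to lowest was 3.25 in the means. Cct5 stayed first and Cct6a last on this scale, whereas Cct8 moved from place 5 to place 7.

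The annotated lengths behind that scale did not match the models read for some subunits. Unannotated models of Cct4 ended a median 629 bases before the 3′ end of Cct4-204, those of Cct8 ended 662 bases before that of Cct8-201, and those of Tcp1 ended 511 bases before that of Tcp1-209. The annotated 3′ ends of Cct4-201, Cct8-203 and Tcp1-201 lie at these distances. For Cct2, Cct3, Cct5, Cct6a and Cct7 the median distance at the 3′ end was at most 5 bases. At the 5′ end, the models of Cct6a began a median 441 bases after the start of Cct6a-202. Those of Cct7 began a median 538 bases after that of Cct7-201. The annotated starts of Cct6a-201 and Cct7-202 lie at these distances. Each median counts a model once, whatever its reads. The most read Cct6a structure, with 198 and 225 reads in replicates 1 and 2, begins at the start of Cct6a-202. The median length of the unannotated models with the full number of exons was then used instead, each model counted once. With that length the ratio of highest to lowest was 2.79, with Cct5 again first and Cct6a last, while Cct8 stood at place 4. For Cct6a it was 2113 bases, beside 2548 bases for its most read model. The place of Cct8 thus depended on the length used.

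For 7 of the 8 subunits most reads matched 1 annotated transcript. Complete models here mean the class Known (an annotated transcript), NIC (known splice sites in a new combination) and NNC (at least 1 new splice site). ISM models are partial matches to a longer transcript, and some of them, as in Cct6a, held a junction that is not annotated. Cct5-201 took 690 of 719 complete-model reads of its gene in replicate 1 and 788 of 816 in replicate 2, or 96.0% and 96.6%. Cct7-201 took 95.2% and 93.1%, and Cct4-204 took 93.6% and 95.3%. Cct3-201 took 89.4% and 96.0%, Cct2-201 88.0% and 87.4%, and Cct8-201 87.4% and 89.2%. Tcp1-209, the main transcript of Tcp1, took the lowest share of the 7, 82.7% and 84.5%. The shares of the 7 stand beside a median of 88.0% and 88.2% over all 4011 genes tested on isoform use.

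Of 67 annotated transcripts of the 8 genes, 13 were read at all and 8 reached 10% of complete-model reads in either library. Tcp1 was the one gene with 2 such transcripts. Tcp1-209 has 12 exons and a coding sequence of 556 codons. Tcp1-201, with 11 exons and 507 codons, took 11.2% of complete-model reads in replicate 1 and 8.30% in replicate 2, from 46 and 39 reads. Tcp1-201 lacks the coding exon at chr17:12917798-12917883 (86 bases, plus strand, mm10), which is shown because it separates the 2 transcripts.
Tcp1 alternative exon: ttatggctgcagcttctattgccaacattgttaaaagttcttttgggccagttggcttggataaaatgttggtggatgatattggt
Over models of every class, the junction that skips this exon was read 49 times in replicate 1, or 12.0% of the reads that either kept or skipped it (interval 9.16 to 15.4%). In replicate 2 it was read 45 times, or 9.51% (interval 7.19 to 12.5%). The intervals of the libraries overlap.

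Cct6a differed from the other subunits in having almost no read on an annotated transcript. In replicate 1 it had 6 reads in the class Known and 288 in NNC out of 329. In replicate 2 it had 3 in Known and 326 in NNC out of 359. All 9 Known reads belonged to Cct6a-204, a short annotated transcript of 3 exons and 411 bases at the 3′ end of the gene, and no read matched Cct6a-202. The NNC share of Cct6a was 87.5% in replicate 1 and 90.8% in replicate 2, while the other 7 subunits together had 3.45% and 3.97%. Among 1447 genes with at least 100 reads in each library the median NNC share was 2.56% over both libraries, and 1 gene, Cct6a itself, reached the 89.2% of Cct6a. On the share in class Known, 23 of these genes, Cct6a included, were at or below the 1.31% of Cct6a.

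**Figure D2:**
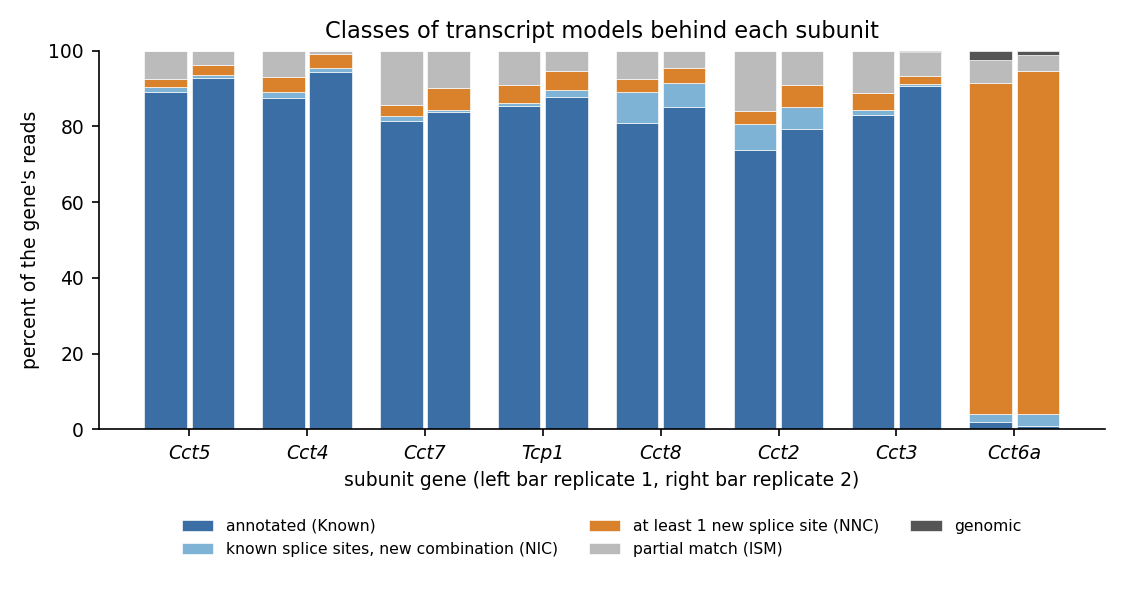
Percent of each subunit's reads (vertical axis) in 5 classes of transcript model, with replicate 1 as the left bar and replicate 2 as the right bar of each pair. Known models make up most of every subunit but Cct6a, where NNC models make up 87.5% and 90.8%.

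The Cct6a reads fell on 2 main structures of 13 exons each, found in both libraries. The more used structure was read 198 times in replicate 1 and 225 times in replicate 2, and the second 74 and 79 times. They shared every splice site except those of the long junction after exon 10. The more used structure joined position 129794560 to 129844937 on chr5, and the second joined 129794604 to 129844970. The introns so skipped are 50376 and 50365 bases long, whereas the longest annotated intron of the other 7 subunits has 6987 bases.

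Over all models of the gene, 310 reads in replicate 1 and 350 in replicate 2 crossed this long gap, and 0 of them in either library used an annotated junction. The more used junction took 68.7% (interval 63.3 to 73.6%) in replicate 1 and 67.7% (interval 62.6 to 72.4%) in replicate 2. The second took 26.8% (interval 22.2 to 32.0%) and 27.1% (interval 22.8 to 32.0%). The intervals of the libraries overlapped for both junctions. The remaining reads were spread over 15 junctions, of which 3 were read in both libraries, with 5 and 4, 3 and 3, and 2 and 3 reads. In all, 17 junctions crossed the gap, 9 in replicate 1 and 13 in replicate 2, with 5 in common.

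Both main structures held more sequence beside the junction than Cct6a-202 does. The more used one extended the left exon from 148 to 209 bases and the right exon from 103 to 136 bases, 94 bases more in all. The second extended the left exon to 253 bases and kept the right exon at 103, 105 bases more in all. Both left exon ends lie inside Snora15, which had 0 reads of its own in both libraries. In the Snora15 sequence above, the bases that follow either end are GT. In the Cct6a-201 sequence above, the bases before position 129844937 are AG. GT and AG are the usual first and last bases of an intron. Whether the aligner or filters favoured such sites cannot be told, since neither is given in the sources used here.

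**Figure D3:**
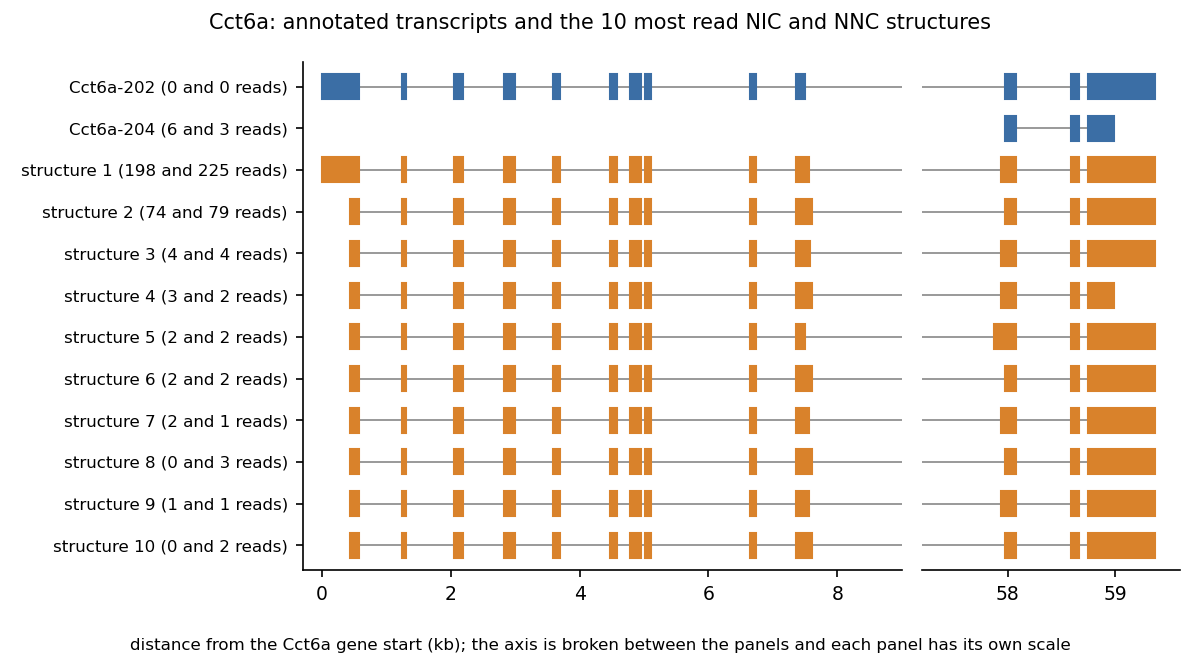
Exons (boxes) of 2 annotated Cct6a transcripts (blue) and of the 10 most read NIC and NNC structures (orange), partial ISM models left out, by distance from the gene start in kb, on an axis broken between the panels. The structures drawn differ from Cct6a-202 in the last exon before the gap, the first after it or both. All but structure 1 also begin later, at 0.441 kb, and structure 4 ends earlier, at 58.985 kb.

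The reading frame across the gap was followed on Cct6a-202. Upstream of the annotated junction 1 frame was open for 469 codons, and it reached a stop 7 codons after the junction. Downstream, another frame was open for 82 codons. Joining these frames needs added bases that leave a remainder of 2 on division by 3. The 94 bases of the more used structure leave 1 and the 105 bases of the second leave 0, and none of the 5 junctions found in both libraries left 2. Junctions that did were read once in replicate 1 and 2 times in replicate 2. The lengths come from the alignment of reads to mm10. The sequences of the reads themselves, and whether the reference is complete in this interval, were not analysed here.

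Outside Cct6a, unannotated structures were many but thinly read. Over the 8 genes, NIC and NNC models with several exons gave 222 distinct structures, of which 54 were found in both libraries by exact intron chain. Cct8 had 11 of these 54, Cct2 and Cct6a 8 each, Tcp1 and Cct4 7 each, Cct7 6, Cct3 5 and Cct5 2. The same intron chain carried a different class in the 2 libraries in 16 of the 54 cases, so the split between NIC and NNC is loose. Structures with a splice site moved by 10 bases or fewer from an annotated junction numbered 114, with 34 in both libraries. Among the 114 the median of the largest move was 4 bases, and 89 moved by a number of bases that is not a multiple of 3. These 114 structures took 120 reads in replicate 1 and 160 in replicate 2.

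The most read NIC or NNC structure outside Cct6a belonged to Cct8, on chr16. It joined 87490665 to 87491298 in place of 87491302 (minus strand), which lengthens the exon by 4 bases. Both ends of that junction are annotated sites, joined anew. The structure was read 22 times in replicate 1 and 18 times in replicate 2. Over all models, that junction took 7.82% of the reads at this place in replicate 1 (interval 5.50 to 11%) and 4.71% in replicate 2 (interval 3.13 to 7.03%). In Cct2, a junction from 117055230 to 117056036 on chr10, with both ends moved against the annotated 117055235 and 117056040, took 3.72% and 2.11%.

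Further exon skipping was thinly read. Among the NIC and NNC structures outside Cct6a, 25 structures of 5 subunits lacked an exon of the main transcript, and 6 of them, from Tcp1, Cct7 and Cct8, were in both libraries, none with more than 3 reads in a library. In 17 of the 25 at least 1 exon was skipped by a junction that is not annotated, and 3 of these, from Tcp1 and Cct8, were in both libraries. The unannotated Cct8 case skipped an exon of 72 bases and was read once in each library. In other structures found in both libraries, annotated junctions skipped an exon of 165 bases in Cct7, with 2 reads and 1 read. Another such structure lacked an exon of 91 bases in Cct8, with 3 reads and 1 read. Further Cct8 structures, each read once in a single library, skipped that same exon. Of 11 structures that kept an intron, 1 was in both libraries, from Cct3, with an intron of 78 bases and 1 read in each. Introns of Cct4 (407 bases) and Tcp1 (366 and 350 bases) were also kept in both libraries, but by different structures in each.

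Alternative first exons were read for Cct2 and Cct5. In Cct2 the junction to the alternative first exon was read 13 times in replicate 1, or 4.28% of reads over either first junction (interval 2.52 to 7.18%), and 12 times in replicate 2, or 3.31% (interval 1.91 to 5.70%). In Cct5 the alternative was read 8 and 5 times, or 1.11% and 0.613%. The same first exons belong to the annotated transcripts Cct2-205 and Cct5-205, and here they were joined to the remainder of the main transcript. RefSeq on GRCm38.p6 gives a start for each of these first exons, and the 2 Cct2 windows, which run from before to just after the start, are shown because both starts were in use. They are on the minus strand of chr10, at chr10:117063803-117064102 for the main start and chr10:117063326-117063625 for the alternative one. Capitals mark a match to a heat shock element unit, searched as TTCNNGAA and GAANNTTC, each of which reads the same on both strands. Matches of one may share letters with matches of the other.
Cct2 main start: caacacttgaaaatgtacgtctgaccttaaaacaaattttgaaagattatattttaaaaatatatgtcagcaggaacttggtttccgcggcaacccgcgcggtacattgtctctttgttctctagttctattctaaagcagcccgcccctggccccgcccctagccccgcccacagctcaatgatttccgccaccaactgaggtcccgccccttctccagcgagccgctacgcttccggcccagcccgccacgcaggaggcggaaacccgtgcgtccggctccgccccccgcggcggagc
Cct2 alternative start: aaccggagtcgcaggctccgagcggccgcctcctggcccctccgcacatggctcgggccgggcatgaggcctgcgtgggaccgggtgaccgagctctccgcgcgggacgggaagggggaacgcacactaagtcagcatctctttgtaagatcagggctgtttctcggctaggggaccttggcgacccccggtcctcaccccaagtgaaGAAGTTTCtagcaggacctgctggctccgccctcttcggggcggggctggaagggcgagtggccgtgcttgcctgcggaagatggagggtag
RefSeq gave 9 such windows for 7 of the 8 genes, and 3 of the 9 held a match to either form: the alternative start of Cct2, the main start of Cct5 and the start of Cct6a. Of 32851 windows of all genes, 15.1% held one.

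All 8 subunits were higher in replicate 2 than in replicate 1. The median log2 ratio of the 8 was 0.29, beside 0.06 over all 8940 genes tested, and 54.7% of those were above 0. The exact binomial test between the libraries, two-sided and adjusted by Benjamini-Hochberg over all tested genes, called 5 of the 8 higher in replicate 2 and none lower. Over all genes tested, 1.39% were called higher in replicate 2 and 2.6% higher in replicate 1, 3.98% in all. Many of these genes had fewer reads than any subunit. Among the 4739 genes with at least 50 reads, 3.31% were called higher in replicate 2, again with 5 of the 8 subunits. The test compares 2 libraries of the same cells with counting error alone, and says nothing of a condition.

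Cct7 differed most, with 630 CPM in replicate 1 and 891 CPM in replicate 2, a log2 ratio of 0.50 ± 0.09 (SE from counts, adjusted p = 9.95e-07 in the exact test). Cct8 had a log2 ratio of 0.39 ± 0.10 (adjusted p = 0.00352, exact test) and Cct4 by 0.34 ± 0.08 (adjusted p = 0.00313, exact test). Cct3 had 0.37 ± 0.11 (adjusted p = 0.0216, exact test) and Cct5 0.23 ± 0.07 (adjusted p = 0.0435, exact test). Tcp1, Cct2 and Cct6a had log2 ratios of 0.24, 0.24 and 0.22 and did not pass, with adjusted p of 0.154, 0.228 and 0.329 in the exact test.

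**Figure D4:**
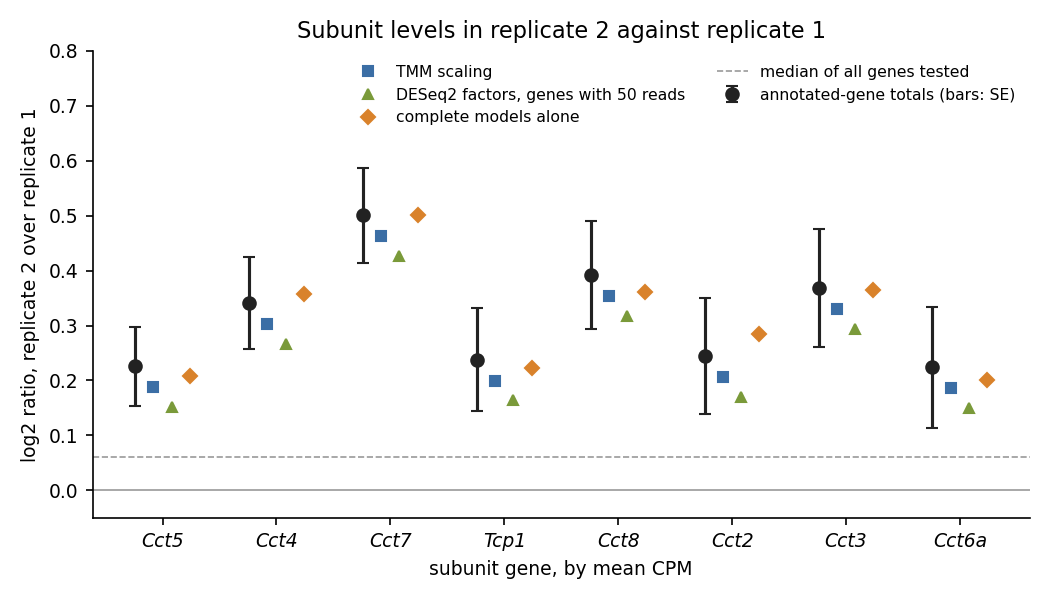
Log2 ratio of replicate 2 over replicate 1 for each subunit (vertical axis) under the annotated-gene totals with the SE from counts (black), 2 other scalings and complete models alone; the dashed line is the median of all genes tested. All 8 subunits lie above that line under each of the settings drawn, with Cct7 highest.

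The number of subunits called depended on the scaling. It was 4 under TMM scaling, where Cct5 missed the threshold, and 1 (Cct7) under DESeq2 size factors, which came out at 1 for both libraries. With these factors taken from genes with at least 50 reads, 3 were called. Over all genes, 124 were called higher and 232 lower in replicate 2 under the annotated-gene totals, 45 higher and 337 lower under DESeq2 size factors, and 64 higher and 322 lower with factors from genes of at least 50 reads. Under TMM scaling 98 were called higher and 290 lower. The log2 ratio of each of the 8 subunits stayed above 0 in every setting tried.

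Other measures moved between the same libraries. The share of annotated-gene reads on complete models was 84.0% in replicate 1 and 88.3% in replicate 2. For the subunits it was 90.3% and 94.5%. With complete models alone, 4 subunits were called higher in replicate 2, beside 1.51% of genes, and Cct5 was not (adjusted p = 0.0903, exact test). Of the myoblast markers, Des was higher in replicate 2 (log2 ratio 0.53) and Myf5 lower (log2 ratio -1.73). The part of these differences in the subunit ratios was not tested.

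Each subunit had a larger complete-model share in replicate 2. The smallest p was that of Cct4, with 502 of 539 reads complete in replicate 1 (93.1%) and 632 of 638 in replicate 2 (99.1%), an adjusted p of 7.96e-06 by Fisher's exact test. In genes with at least 20 reads in each library Cct4 was the only subunit of 8 to pass, beside 4.05% of 4960 genes tested, 3.95% with a larger share in replicate 2. Cct5 also passed when the minimum was 50 reads (adjusted p = 0.0320, Fisher's exact test). The widest difference, 6.87 percentage points, was in Cct2, from 84.0% in replicate 1 to 90.9% in replicate 2, and it did not pass (adjusted p = 0.0982, Fisher's exact test). ISM reads were mostly of the suffix kind, which holds the 3′ part of a transcript: 313 of 348 in replicate 1 and 207 of 229 in replicate 2.

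Isoform use did not pass for any of the 8 subunits, where 0.0997% of 4011 genes did. Before adjustment 1 subunit had p under 0.05 in Fisher's exact test. That was Cct3, whose main transcript took 89.4% of complete-model reads in replicate 1 and 96.0% in replicate 2 (p = 0.00114, adjusted p = 0.456, Fisher's exact test). The short retained-intron transcript Cct3-203 had 10 reads in replicate 1 and 5 in replicate 2. The main Cct6a structure took 65.8% and 66.2% of complete-model reads (adjusted p = 1, Fisher's exact test).

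The partners of the chaperonin were taken by pathway, with all listed genes named. The 6 prefoldin genes summed to 1146 CPM in replicate 1 and 1020 CPM in replicate 2. Their mean CPM spanned 15.4-fold, from Pfdn6 (34.8 ± 3.56 CPM, SD, n = 2) to Pfdn5 (537 ± 68.8 CPM). None of the 6 was called between replicates, and 2 had a ratio above 0. Under DESeq2 size factors Pfdn5 was called lower in replicate 2 (adjusted p = 0.0154, exact binomial test). Vbp1 was at 168 and 155 CPM, Pfdn1 at 191 and 177, Pfdn2 at 112 and 81.6, and Pfdn4 at 55.6 and 80.3. Of the phosducin-like cofactors, Pdcl3 was at 212 and 213 CPM, the thioredoxin-like Txndc9 at 146 and 155, and Pdcl at 22.0 and 34.6, while Pdcl2 had no read. None of the 3 tested was called.

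Cct6b, the paralogue of Cct6a, had 1 read in replicate 1 and 0 in replicate 2, where 0 allows up to 4.15 CPM. Cct8l1 had no read in either library. The chaperonin-like Bardet-Biedl genes had 7 and 14 reads for Mkks, 2 and 3 for Bbs10 and 3 and 1 for Bbs12. None of 16 named pseudogenes of the subunits, 10 of them in GENCODE M21, had a read, and no antisense model overlapped a subunit gene. Reads that the counting could have moved between a subunit and such a copy were not analysed here.

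The mitochondrial chaperonin differed in its 2 parts. Hspd1, its ring protein, was at 579 CPM in replicate 1 and 739 in replicate 2 (log2 ratio 0.35, adjusted p = 0.00692, exact binomial test). Hspe1, its lid, was at 334 and 257 CPM and did not pass (adjusted p = 0.121, exact binomial test). Under DESeq2 size factors Hspe1 passed as lower in replicate 2 (adjusted p = 0.0211). The call of Hspd1 was lost with complete models alone (adjusted p = 0.123) and under DESeq2 size factors (adjusted p = 0.116). The 5 tubulin folding cofactors, which act on tubulin after CCT, summed to 562 and 534 CPM with none called. Tbca was the highest at 259 and 224 CPM, Tbcb was at 140 and 149, Tbcc at 107 and 98.2, Tbce at 38.8 and 44.3 and Tbcd at 18.1 and 18.0. Hsf1 and Hsf2, heat shock transcription factors, were at 72.4 and 77.5 CPM and at 36.2 and 16.6 CPM, neither called.

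Of 14 client genes, 5 were called higher in replicate 2 and 2 lower, with a median log2 ratio of 0.20. Over all genes tested the shares were 1.39% and 2.6%. Among the 4739 genes with at least 50 reads, 157 were called higher and 249 lower. The 5 client genes higher in replicate 2 encode cytoplasmic actin and tubulins. With log2 ratios in brackets, they were Actg1 (0.25), Tuba1a (0.22), Tuba1b (0.18), Tubb5 (0.26) and Tubb6 (0.48). Under DESeq2 size factors Tuba1a and Tuba1b were not called (adjusted p of 0.114 and 0.391, exact binomial test), and Tuba1a was not with complete models alone (adjusted p = 0.244). Actb, the other cytoplasmic actin, was lower in replicate 2, at 8488 and 4731 CPM, as was Gnb1, a G protein beta subunit, at 211 and 111 CPM. Only 636 of 6565 Actb reads in replicate 1 and 570 of 3419 in replicate 2 were on complete models, and with these alone its log2 ratio was -0.13 in place of -0.84 and it was not called (adjusted p = 0.511). Gnb1 kept its log2 ratio with complete models alone (-0.93, against -0.92 with all reads), but only 14 and 7 of its reads were complete and it was not called (adjusted p = 0.624). Tubb4b was at 587 and 704 CPM, Tubb2a at 674 and 789, Tuba1c at 153 and 151, Gnb2 at 112 and 81.6, Cdc20 at 383 and 458, Fzr1 at 114 and 120 and Plk1 at 106 and 96.9, none of them called.

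Several subunit genes lie head to head with another gene. The Tcp1 gene overlaps Mrpl18, a mitochondrial ribosomal protein gene on the other strand, over 645 bases, and Mrpl18 was at 168 and 177 CPM. That overlap is measured from the start of Tcp1-208, which had 0 reads in both libraries. The main transcript Tcp1-209 starts at 12916382, beyond the end of Mrpl18 at 12916345. Cct6a overlaps Psph over 452 bases, and Psph was at 73.7 and 118 CPM. Unannotated Cct6a models began a median 441 bases into the gene, although the most read structure began at the gene start. Cct7 overlaps Pradc1 over 457 bases, with Pradc1 at 23.3 and 11.1 CPM. That overlap is measured from the start of Cct7-201, and unannotated Cct7 models began a median 538 bases after it, beyond the end of Pradc1. Cct5 starts 48 bases from Fam173b, which was at 64.6 and 69.2 CPM. Cct3 starts 117 bases from Tsacc, which had 2 reads in replicate 1 and 0 in replicate 2. Usp16, which overlaps the 3′ end of Cct8, was at 73.7 and 69.2 CPM. Each of these neighbours was below its subunit in both libraries, and none of the 5 tested was called between replicates.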

How the data were processed

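Long-read RNA-seq of C2C12 gave 2 libraries of 1 group. The deposited tables hold raw read counts per transcript model, made by the authors on mm10 with GENCODE M21, per the file headers; the model identifiers in the annotations are those of TALON. For the aligner and filters, nothing is given in the sources used here. A gene's count was summed over all its models, and CPM were taken over annotated-gene reads. Complete models were Known, NIC and NNC. Unannotated structures were matched by exact intron chain.

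Between libraries, genes with at least 10 reads summed were compared by an exact binomial test (two-sided), and shares by two-sided Fisher's exact test (at least 20 reads in each library), with Benjamini-Hochberg adjustment over all genes at 0.05. For log2 ratios, 0.5 reads were added. The tests were checked on simulated data. Scaling factors came from edgeR 4.0.16 (TMM) and DESeq2 1.42.0, tests from scipy 1.17.1. The length for CPM per kb was that of the most read model, since the most read annotated transcript of Cct6a is a short fragment. All 8 subunits were named, with annotated transcripts at 10% or more of complete reads, structures found in both libraries as counts and the most read by name, and every gene of the pathway lists. The members and lists were chosen with earlier results of these data known. Alternatives are in the closing section.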

Additional observations from a re-analysis of the deposited data

How the results depend on the processing

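The summed CCT level ranged from 4736 CPM without replicate 2 to 5898 without replicate 1, and the ratio of highest to lowest subunit was 2.36 without either. That ratio was 2.39 with complete models alone, 3.25 per kb of the most read model and 2.79 per kb of the unannotated models, the last an alternative chosen after seeing the data, as were the DESeq2 size factors from genes with at least 50 reads. The number of genes called on isoform use was 4, and 14 with Known models alone. On complete-model share it was 201, and 98 with Known models alone. Unannotated structures of the subunits found in both libraries numbered 122 with ISM models included, 60 with at least 2 reads in each library, 54 with NIC and NNC alone, and 0 by transcript identifier, since identifiers belong to a single library. The number of genes called between replicates stayed within 301 and 406, beside 356. Both DESeq2 size factors over all genes were 1, and 10.3% of genes read in both libraries had the same count in each. No subunit's log2 ratio changed sign. Cct3 (adjusted p = 0.178), Cct4 (0.0845), Cct5 (0.485) and Cct8 (0.0640) lost their call under DESeq2 size factors in the exact test, with log2 ratios of 0.27, 0.24, 0.13 and 0.29. Cct5 also lost it under TMM scaling (0.137, log2 ratio 0.19), complete models alone (0.0903, log2 ratio 0.21) and no filter (0.0689), where its log2 ratio was the same 0.23 and more genes entered the adjustment; otherwise the cause was not tested. With factors from genes of at least 50 reads, Cct3 (0.115) and Cct5 (0.305) lost their call. No paired analysis was possible because the series has 1 group. With 1 library a side, p-values cover counting error only, and differences below the intervals given were not detectable at this depth.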
